A study of Homo sapiens with 4 samples.

Results

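Among 11266 peaks called under the label LAP-Smad2 untreated, 4921 peaks, or 43.7% (42.8% to 44.6%), overlapped no peak of either library treated with TGFβ-1 by 1 bp or more. These 4921 peaks are described here and are called absent peaks, and the other 6345 peaks of the same list are called kept peaks. The absent peaks were chosen by measured values, namely the peak calls of 3 libraries, so their absence after treatment is the rule and not a finding. The 4 deposited lists hold 104156 peaks in total. Ranges in parentheses after a share are Wilson 95% intervals, which cover counting error only.

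The libraries came from chromatin immunoprecipitation with an anti-GFP antibody in MDA-MB-231, an established line of metastatic breast cancer cells, carrying a bacterial artificial chromosome (BAC) transgene with Smad2 or Smad3 fused to the localization and affinity purification (LAP) tag, which holds GFP. There were 4 conditions with 1 library each, namely LAP-Smad2 untreated, LAP-Smad3 untreated, and LAP-Smad2 and LAP-Smad3 after 10 ng/mL TGFB1 for 2 h. All cells were grown in serum under Geneticin and had been sorted for GFP after transfection, and they keep their own Smad2 and Smad3 beside the tagged copy. As each condition has 1 library, differences between conditions have no replicate check, and depth, which is unknown beyond a minimum number of reads, cannot be told apart from treatment. A conflict touches the untreated pair. The sample label of the list used here says LAP-Smad2, whereas the deposited list and each peak name in it say SMAD3, and for the other untreated list the names are the other way round. The BAC adds copies of its gene to the line, which can be read at SMAD2 and SMAD3, each with 10 kb on both sides. At SMAD2, the LAP-Smad2 TGFB1 list had 18 peaks and the LAP-Smad3 TGFB1 list 1, the list used here had 2, and the other untreated list, labelled LAP-Smad3, had 14. At SMAD3, the LAP-Smad3 TGFB1 list had 52 peaks and the LAP-Smad2 TGFB1 list 1, the list used here had 0 and the other untreated list 1. These counts go against the label of the other untreated list and do not show a tagged gene for the list used here, which is therefore called the list labelled LAP-Smad2 untreated. The absent peaks were found against both treated lists together, so that the same 4921 peaks result under either name of their own list.

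Smad2 and Smad3 are the receptor-regulated Smads of the TGFβ pathway. The activated receptor phosphorylates them, they join Smad4 and enter the nucleus, and without ligand they are mainly cytoplasmic. Smad3 and Smad4 contact short elements with the core word CAGAC, whereas the main form of Smad2 contacts DNA weakly, and both rely on partner factors. A peak caller compares the reads piled up at a place with the number expected there, and in repeated DNA a short read can match several places.

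The windows below are the central 200 bp of 5 absent peaks, read from the plus strand of hg38. The first 2 were taken by rule from the whole set as the windows with the highest −log10 q without and with another copy in the genome. The other 3 were added after the values had been seen, to show the highest-scoring AT-rich window, a GC-rich tandem repeat and a single-copy promoter window.
Highest score without another copy, chrY:11300109-11300308, capitals mark the word GGAAT on either strand: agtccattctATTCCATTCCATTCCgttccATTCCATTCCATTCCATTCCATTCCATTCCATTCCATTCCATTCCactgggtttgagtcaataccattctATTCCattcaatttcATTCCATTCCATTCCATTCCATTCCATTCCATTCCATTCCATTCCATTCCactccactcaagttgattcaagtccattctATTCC
Highest score with another copy, chr21:8440331-8440530, capitals mark CpG: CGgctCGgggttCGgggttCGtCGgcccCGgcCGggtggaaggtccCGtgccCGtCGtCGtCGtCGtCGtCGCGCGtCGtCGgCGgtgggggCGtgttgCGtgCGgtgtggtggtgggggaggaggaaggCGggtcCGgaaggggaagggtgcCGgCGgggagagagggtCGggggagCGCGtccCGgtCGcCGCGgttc
Highest score among AT-rich windows, in MYRIP, chr3:40084368-40084567, capitals mark the first 32 bp, the repeat length: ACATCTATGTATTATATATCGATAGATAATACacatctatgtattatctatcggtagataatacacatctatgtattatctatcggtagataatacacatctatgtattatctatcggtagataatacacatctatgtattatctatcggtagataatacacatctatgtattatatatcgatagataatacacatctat
GC-rich tandem repeat beside SHTN1, chr10:117126496-117126695, capitals mark the first 28 bp, the repeat length: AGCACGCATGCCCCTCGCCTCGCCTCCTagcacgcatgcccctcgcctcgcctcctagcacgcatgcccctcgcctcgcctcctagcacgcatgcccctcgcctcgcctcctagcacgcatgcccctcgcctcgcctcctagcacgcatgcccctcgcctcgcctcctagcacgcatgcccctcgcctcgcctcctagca
Single-copy window beside the start of TFAP2A, chr6:10421244-10421443, capitals mark CpG: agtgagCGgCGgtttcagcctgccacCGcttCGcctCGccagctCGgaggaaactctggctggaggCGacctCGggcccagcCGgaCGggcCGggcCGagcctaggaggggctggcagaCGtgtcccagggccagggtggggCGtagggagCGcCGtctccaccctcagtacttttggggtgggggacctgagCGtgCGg

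The GC content of the absent peaks fell into 3 separate ranges. Their mean was 41.1% ± 26.4 (SD over 4921 windows), against 62.4% ± 15.02 (SD over 6345 windows) for kept peaks, a difference of −21.3 percentage points, or −0.993 of the SD between peaks. With peaks counted as kept only where a treated summit lay within 100 bp, the difference was −12.6 percentage points. The mean itself described few absent peaks. In bins of 5%, the most filled bins were 0 to 5% with 571 absent peaks, 55 to 60% with 440 and 70 to 75% with 792, and between them the counts dropped to 54 at 30 to 35% and 115 at 60 to 65%. The classes used from here on were set at these gaps after the histogram had been seen. AT-rich windows had a GC content below 35%, GC-rich windows had 60% or more, and the rest were intermediate. Of the absent peaks, 1955 were AT-rich, 1444 intermediate and 1522 GC-rich, and of the kept peaks, 295, 2100 and 3950. AT-rich windows thus made up 39.7% (38.4% to 41.1%) of absent and 4.65% (4.16% to 5.20%) of kept peaks, and GC-rich windows 30.9% (29.7% to 32.2%) and 62.3% (61.1% to 63.4%).

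**Figure D1:**
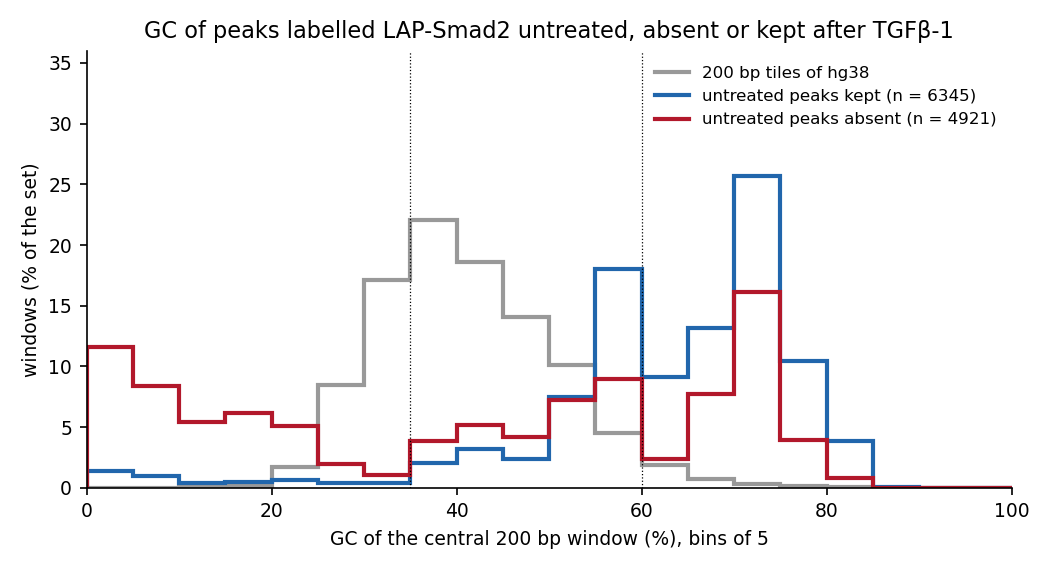
GC content of the central 200 bp window on the x axis, in bins of 5%, and the share of windows per bin on the y axis, for 4921 absent peaks, 6345 kept peaks and the 200 bp tiles of hg38. Dotted lines mark 35% and 60%. The absent peaks have 3 separate ranges, with 571 windows below 5% GC, and most hg38 tiles lie between the first and the last of these ranges.

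Within the AT-rich class both absent and kept peaks had a lower GC content than sampled AT-rich DNA. Their mean GC content was 11.5% ± 8.65 (SD over 1955 windows), with a median of 9.5% and 10% of them at or below 1.5%, and kept peaks of the class were close to them, with 13.3% ± 10.6 (SD over 295 windows) and a median of 10%. Sampled hg38 tiles of the same class averaged 30.2% ± 3.40 (SD over 8060 tiles). The intermediate absent peaks had a median of 51%, from 42.5% at the lower to 55.5% at the upper quartile. The GC-rich ones were a narrow group around a median of 71.5%, with quartiles of 69.0% and 73.5%, and kept GC-rich peaks had the same median of 71.5%. The mean GC of absent peaks was below that of kept peaks on each of 24 chromosomes, by between 0.46 percentage points on chromosome Y and 26.5 on chromosome X.

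Tiles of 200 bp without unknown bases, 14687330 of them, were then sorted by GC content, and a tile was counted as inside a peak if its centre was. Of the 2273 tiles with less than 5% GC, 866 tiles, or 381.0 per 1000, lay inside an absent peak, against 0.509 per 1000 of tiles of any GC. At 30 to 35% GC the value was 0.049 per 1000, and at 70 to 75% it was 22.1 per 1000. The whole list labelled LAP-Smad2 untreated held 1083 of the 2273 tiles below 5% GC, the LAP-Smad3 TGFB1 list 109, and the list labelled LAP-Smad3 untreated and the LAP-Smad2 TGFB1 list 0 each. Tiles of extremely low GC were thus held by the list of origin and, in smaller number, by 1 of the treated lists. Among peaks rather than tiles, 658 of the 11266 in the list labelled LAP-Smad2 untreated, or 5.84%, had windows below 5% GC. The list labelled LAP-Smad3 untreated had 0 of 3511 such peaks and the LAP-Smad2 TGFB1 list 0 of 26828. The LAP-Smad3 TGFB1 list had 85 of 62551, or 0.136%.

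**Figure D2:**
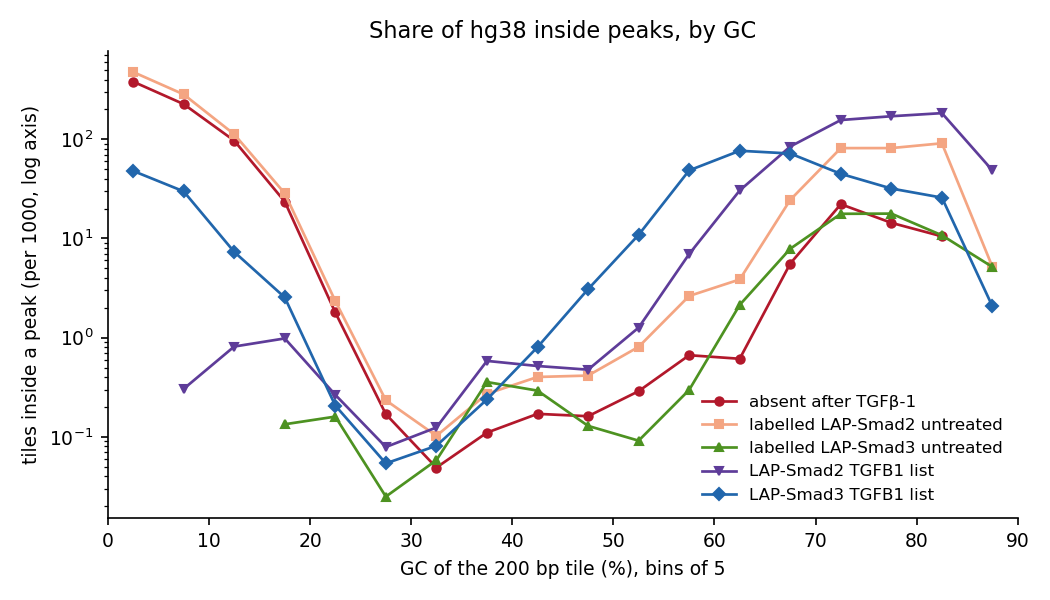
GC content of 200 bp tiles of hg38 on the x axis, in bins of 5%, and the number of tiles with their centre inside a peak per 1000 tiles on the y axis, a log axis, for the absent peaks and the 4 deposited lists. Bins with 0 tiles inside a peak have no point. The absent peaks reach 381.0 per 1000 below 5% GC and 22.1 per 1000 at 70 to 75%, with 0.049 per 1000 at 30 to 35% as the lowest value above 0, and they hold 0 of 970 tiles at 85 to 90%.

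As a description, since the class limits were set on the histogram of the absent peaks, the share of peaks absent after TGFβ-1 differed between GC classes. It was 86.9% (85.4% to 88.2%) of 2250 AT-rich peaks, 40.7% (39.1% to 42.4%) of 3544 intermediate peaks and 27.8% (26.6% to 29.02%) of 5472 GC-rich peaks. Weak peaks were absent more often, so the shares were also taken within ranges of −log10 q, the score of the authors' peak caller after correction for multiple testing. Below 5, the AT-rich share was 94.5% (92.1% to 96.2%) and the GC-rich share 38.4% (35.8% to 41.0%). From 5 to under 10 they were 92.4% (90.7% to 93.8%) and 32.1% (30.3% to 33.9%), and from 10 upwards 71.4% (67.8% to 74.8%) and 12.7% (11.1% to 14.4%). The order of the classes was the same in each range. Of the 295 kept AT-rich peaks, the LAP-Smad3 TGFB1 list alone overlapped 216, while the LAP-Smad2 TGFB1 list alone overlapped 58 and both overlapped 21. Of the 3950 kept GC-rich peaks, 1503 were in both treated lists, 1415 in the LAP-Smad2 TGFB1 list alone and 1032 in the LAP-Smad3 TGFB1 list alone.

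**Figure D3:**
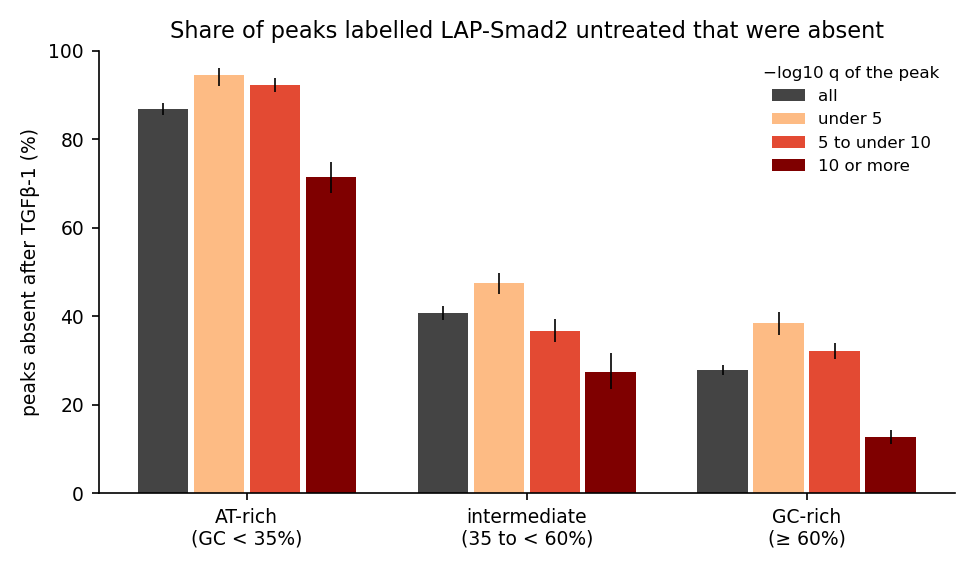
Share of peaks labelled LAP-Smad2 untreated that were absent after TGFβ-1 on the y axis, in percent, by GC class and, within each class, for all peaks and for 3 ranges of −log10 q. Bars start at 0 and lines are Wilson 95% intervals. AT-rich peaks have the highest share in each range, from 94.5% to 71.4%, and GC-rich peaks the lowest, from 38.4% to 12.7%.

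The distance to the nearest treated peak differed between the classes, as a description, since the rule used the same treated peaks. Windows below 35% GC were 1.17% of the LAP-Smad2 TGFB1 and 0.425% of the LAP-Smad3 TGFB1 peaks. Distances were not taken for tiles of each class. The median distance was 19.4 kb for AT-rich, 7.88 kb for intermediate and 2.10 kb for GC-rich absent peaks. A treated peak lay within 1000 bp of 171 of the 1955 AT-rich absent peaks, 8.75% (7.57% to 10.1%), and of 610 of the 1522 GC-rich ones, 40.1% (37.6% to 42.6%). At the threshold of 1 bp, the nearest absent peaks touched a treated peak with a gap of 0 bp, on chromosome 15 from 89867949 to 89868181 with 79.0% GC, on chromosome 16 from 16319448 to 16319648 with 68.5% GC and on chromosome X from 51280308 to 51280507 with 74.0% GC. The kept peaks just on the other side, with an overlap of 1 bp, lay on chromosome 10 from 92675519 to 92675775 with 70.5% GC, on chromosome 11 from 50177624 to 50178064 with 3.50% GC and on chromosome 8 from 85747848 to 85748060 with 43.0% GC. In all, 47 absent peaks lay 0 to 20 bp from a treated peak and 59 kept peaks overlapped one by no more than 20 bp.

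The list labelled LAP-Smad3 untreated, with 3511 peaks, was not used to choose the absent peaks and held few of them. It overlapped 29 of 4921 absent peaks, 0.589% (0.411% to 0.845%), against 660 of 6345 kept peaks, 10.4% (9.67% to 11.2%). Kept peaks by the rule already lie in another list, so this is not an independent comparison. By class, the overlapping absent peaks were 1 of 1955 AT-rich, 9 of 1444 intermediate and 19 of 1522 GC-rich peaks. With absent peaks defined by a mutual overlap of at least 50% or by summits within 100 bp, the share of absent peaks in this list was 3.16% or 3.13%. By the 1 bp rule, 29 of the 4921 absent peaks were thus in a second list.

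The scores of absent and kept peaks overlapped widely, and the highest were those of kept peaks. The fold enrichment, the ratio of piled-up to expected reads at the summit as deposited, had a median of 5.97 in absent peaks, with quartiles of 4.88 and 7.06 and a maximum of 21.4, and kept peaks had a median of 6.14 and a maximum of 31.5. The median −log10 q was 5.60 for absent and 7.06 for kept peaks, with highest values of 45.0 and 224.7. Within the absent peaks, the AT-rich ones had the highest median fold, 6.69, and the widest intervals, with a median of 295 bp, and intermediate ones the lowest, 4.88 and 220.0 bp. The fold values of AT-rich absent peaks were not spread evenly. Of them, 1248 of 1955, 63.8% (61.7% to 65.9%), were whole multiples of 0.669 within a tolerance of 2e-05, against 7.83% (6.55% to 9.33%) of intermediate and 6.70% (5.55% to 8.07%) of GC-rich absent peaks. The value 6.02, which is 9 such steps, was listed for 275 absent peaks. MACS2 adds 1 to both the pileup and the expected number before dividing, so folds on these steps are those of a whole number of reads over the same expected number. AT-rich kept peaks were on the steps in 53.2% (47.5% to 58.8%) of 295 cases. The control that set the expected numbers is not given in the sources used here.

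The classes held different kinds of sequence. Each window was put into the first kind that applied, in this order. First came at least 8 matches to GGAAT, the unit of human satellites 2 and 3, then an alignment to 7SL RNA, the ancestor of the Alu elements. Next came another tandem repeat, with at least 80% of bases equal to those at 1 fixed distance of up to 60 bp, the word TATATATA, any other window with another copy, and none of these. These kinds were chosen after sequences had been read. Of all absent peaks, 682, or 13.9% (12.9% to 14.9%), were of none of these kinds, against 77.9% (77.4% to 78.4%) of 29386 sampled hg38 tiles and 3.97% (3.52% to 4.48%) of kept peaks. Most windows in both parts of the list labelled LAP-Smad2 untreated thus fell into these kinds, in different proportions. The kind with TATATATA but no tandem repeat requires neither repetition nor a copy. It held 1064 absent peaks, 21.6% (20.5% to 22.8%), and 1.75% (1.45% to 2.10%) of kept peaks.

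Most AT-rich absent peaks held the word TATATATA, and a smaller share were tandem repeats. Base composition was not adjusted for. TATATATA occurred in 1587 of 1955 windows, 81.2% (79.4% to 82.8%), against 61.0% (55.3% to 66.4%) of AT-rich kept peaks and 4.49% (4.06% to 4.97%) of AT-rich tiles, whose GC content was much higher. The longest unbroken alternation of T and A had a median of 9 bp and reached 47 bp. A tandem repeat was found in 693, 35.4% (33.4% to 37.6%), below the 44.4% (38.8% to 50.1%) of AT-rich kept peaks, where 0.050% (0.019% to 0.128%) of AT-rich tiles had one. The fixed distance with the most equal bases was 7 to 60 bp in 684 of the 693 and 6 bp or less in 9, with a median of 30 bp. This distance can be a multiple of the repeat unit, so unit lengths were not determined. The MYRIP window printed above, with a distance of 32 bp, is an example. Copies elsewhere were less common than in the other classes, at 32.6% (30.6% to 34.7%), and less common than in AT-rich kept peaks, at 45.1% (39.5% to 50.8%). At least 1 exact 32-mer was found elsewhere in the genome for 95.4% (94.4% to 96.2%) of these windows and 97.3% (94.7% to 98.6%) of AT-rich kept peaks, shares whose intervals overlap. Here and below, a 32-mer elsewhere is one outside the 200 bp window, which can lie directly beside it in the same repeat.

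Intermediate absent peaks were mostly Alu-type sequence. An alignment to 7SL RNA was found in 867 of 1444 windows, 60.04% (57.5% to 62.5%), below the 76.2% (74.4% to 78.0%) of intermediate kept peaks and above the 14.0% (13.6% to 14.5%) of intermediate tiles. GGAAT repeats made up 200 of the 1444, 13.9% (12.2% to 15.7%), and 14.0% (12.6% to 15.6%) of kept peaks in the class, shares whose intervals overlap, against 0.118% (0.079% to 0.175%) of tiles. In 92.8% (91.3% to 94.0%) of these windows at least 50% of the 32-mers occurred elsewhere. For such windows a short read cannot always be placed at 1 position, and how the authors handled reads with several positions is not given in the sources used here. The part of read placement in these peaks was not tested.

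Among the 3 classes, the GC-rich absent peaks had the highest share of windows of none of these kinds. Another copy was found for 945 of 1522 windows, 62.1% (59.6% to 64.5%), against 93.3% (92.5% to 94.1%) of GC-rich kept peaks and 14.7% (12.5% to 17.1%) of GC-rich tiles. Tandem repeats other than satellites and Alu-type sequence, with or without a copy, made up 141 windows, 9.26% (7.91% to 10.8%), and 520 windows, 34.2% (31.8% to 36.6%), were of none of the kinds, against 5.09% (4.45% to 5.82%) of GC-rich kept peaks. The 577 GC-rich windows without another copy are returned to below with their genes. The median number of CpG in a GC-rich absent window was 16, against 0 in AT-rich and 6 in intermediate ones.

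**Figure D4:**
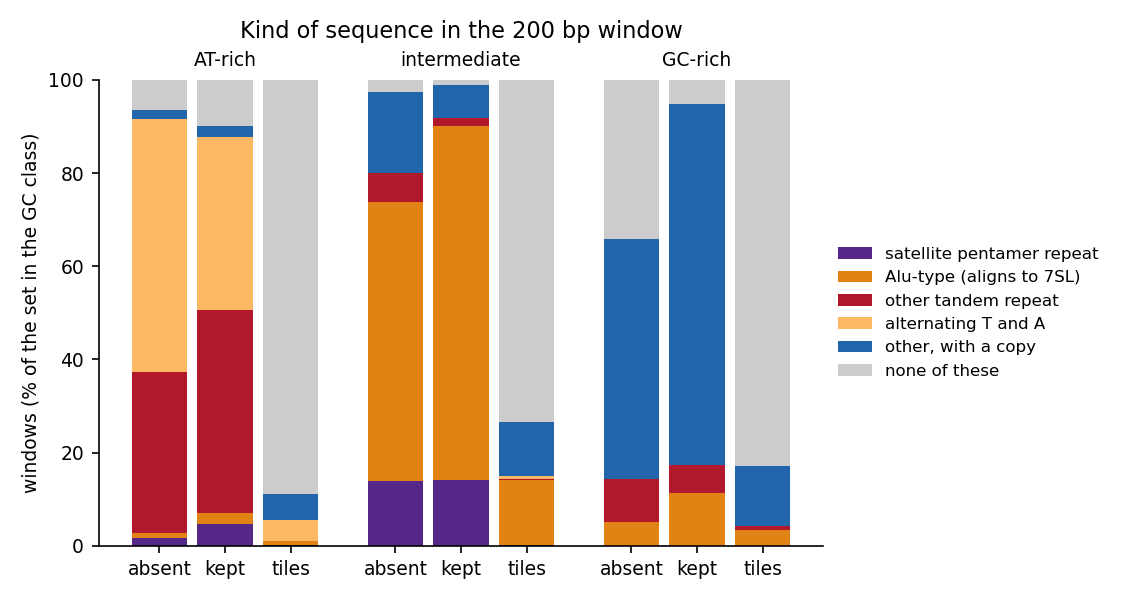
Kinds of sequence in the 200 bp windows, as stacked shares in percent on the y axis, for absent peaks, kept peaks and sampled hg38 tiles of each GC class on the x axis. The satellite pentamer is GGAAT and the alternating kind is TATATATA. Among absent peaks, alternating T and A lead in the AT-rich class with 54.4%, Alu-type windows in the intermediate class with 59.9% and other windows with a copy in the GC-rich class with 51.6%.

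Over all absent peaks, 2526, or 51.3% (49.9% to 52.7%), had another copy, meaning a second place in hg38 where at least 180 of the 200 bases matched. The share was 85.4% (84.5% to 86.2%) of kept peaks and 11.2% (10.8% to 11.5%) of tiles. A copy on another chromosome was found for 36.9% (35.5% to 38.2%) and a copy within 100 kb for 16.7% (15.6% to 17.7%) of absent peaks. Where there was any copy, the median number listed was 17, with at most 50 alignments listed per window. The search skipped short words that are very frequent in the genome, so copies in common repeats can be missed. In the intermediate class, a copy was found for 65.3% (62.8% to 67.7%) of absent windows, although 92.8% had at least 50% of their 32-mers elsewhere. A window called single-copy or without another copy is one for which this search found none.

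The 10 absent peaks with the highest −log10 q came from all 3 classes, and 7 of them were of the GGAAT or tandem repeat kinds. The highest, 45.0, belonged to the GGAAT repeat on chromosome Y from 11299862 to 11300556, with a fold of 5.10 and 39.5% GC, whose nearest protein-coding gene, USP9Y, was 1237 kb away. Of its 32-mers, 56.8% occurred elsewhere, and whether its reads came from chromosome Y was not tested. The next, with 42.6, lay on chromosome 21 from 8440311 to 8440550 in ENSG00000280441, with a fold of 8.09 and 7 listed copies. The MYRIP peak, on chromosome 3 from 40084169 to 40084767 in an intron of the gene for a myosin and Rab interacting protein, had 41.8 and a fold of 21.4. PIGN, a gene of glycosylphosphatidylinositol anchor synthesis, held an intronic peak on chromosome 18 from 61970026 to 61970730 with 40.7, a fold of 21.4 and 5.50% GC. The 28 bp repeat on chromosome 10 from 117126336 to 117126856, 0.01 kb from SHTN1, had 40.4 and a fold of 16.4. All of its 32-mers occurred outside the window, which can be in the rest of the same repeat. The search found 0 copies of the whole window, not counting alignments that overlap it. Of the remaining 5, a GGAAT repeat on chromosome 4 from 49140384 to 49141082 had 38.2, and a 40 bp repeat in GOLGA3, a Golgi protein gene, on chromosome 12 from 132792976 to 132793802 had 35.99. Peaks 118.1 kb from ARHGAP12 on chromosome 10 and 16.0 kb from VGLL3 on chromosome 3 shared a value of 35.4 and a fold of 19.4. The last, on chromosome 4 from 116297070 to 116297359 with 35.3, had 63.0% GC, no copy and no 32-mer elsewhere. None of these 10 had a treated peak over it by the rule.

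Both ends of the GC range held windows with copies. Windows of 0% GC included tandem repeats on chromosome 18 from 39192425 to 39193211 and on chromosome 4 from 15867742 to 15868170, with folds of 14.1 and 13.4 and with 46 and 23 listed copies. Near the other end, a window of 84% GC lay on chromosome 7 from 77533552 to 77533875, 3.58 kb from PTPN12, with a fold of 4.86 and 42 listed copies. The windows of 0% GC are among those with the highest scores of several ties, so that their folds do not stand for all windows of 0% GC.

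Words bound by Smads and by common partner factors were counted in the windows on both strands. The Smad core CAGAC occurred in 782 of 4921 absent windows, 15.9% (14.9% to 16.9%), in 32.7% (31.5% to 33.8%) of kept windows and in 28.3% (27.8% to 28.8%) of tiles. In the AT-rich class, 1.64% (1.16% to 2.30%) of absent and 1.02% (0.346% to 2.95%) of kept windows held it, against 19.9% (19.0% to 20.8%) of AT-rich tiles, whose mean GC was higher. In the intermediate class the order of absent and kept windows was the reverse of that over all windows. The share was 12.3% (10.7% to 14.1%) of absent and 7.76% (6.69% to 8.98%) of kept windows. Both shares were below the 31.04% (30.4% to 31.7%) of intermediate tiles. In the GC-rich class the share was 37.6% (35.2% to 40.1%) of absent windows, 48.3% (46.7% to 49.8%) of kept windows and 42.1% (38.9% to 45.3%) of tiles. The palindrome GTCTAGAC, which contains no CAGAC, was in 0 of 4921 absent and 0 of 6345 kept windows, which allows shares of up to 0.061% and 0.047% at 3 counts, and in 28 of 29386 tiles. The AP-1 word TGANTCA was in 0.752% (0.546% to 1.03%) of absent windows, 0.504% (0.357% to 0.711%) of kept windows and 6.08% (5.81% to 6.36%) of tiles. The GC box GGGCGG, the word of SP1, was in 52.8% (50.3% to 55.3%) of GC-rich absent windows, 61.8% (60.3% to 63.3%) of GC-rich kept windows and 28.3% (25.5% to 31.3%) of GC-rich tiles. The E-box CANNTG was in 31.2% (29.9% to 32.5%) of absent windows, 31.1% (30.0% to 32.3%) of kept windows and 64.5% (63.9% to 65.0%) of tiles. These are counts of letters, not of binding sites, and neither base composition nor shared repeats were adjusted for.

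The absent peaks lay on chromosomes 1 to 22, X and Y, at 0.633 AT-rich, 0.468 intermediate and 0.493 GC-rich peaks per Mb. The AT-rich ones were densest on chromosome 4, with 0.915 per Mb, and the GC-rich ones on chromosome 19, with 1.43 per Mb, where AT-rich ones had 0.734. Chromosome Y had 67 absent peaks, of which 5 were AT-rich and 49 intermediate, and 29 of the 67 had a copy on another chromosome. The search can miss copies, and whether the reads of the 67 peaks came from chromosome Y was not tested. In steps of 1 Mb, the fullest was chromosome 4 from 49 to 50 Mb with 58 absent peaks, 55 of them GGAAT repeats, followed by chromosome 10 from 41 to 42 Mb with 36, all of them GGAAT repeats. Chromosome 2 from 91 to 92 Mb and chromosome 1 from 143 to 144 Mb had 25 each, with 0 and 20 GGAAT repeats. Kept peaks were found in the same places, with 43, 26, 16 and 42 peaks in these 4 steps.

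By annotation, 1928 absent peaks, 39.2% (37.8% to 40.6%), were intergenic, 1790, 36.4% (35.04% to 37.7%), intronic and 73, 1.48% (1.18% to 1.86%), in exons. The other 1130, 22.96% (21.8% to 24.2%), were promoter peaks, for which GENCODE release 44 has a start site at most 3 kb away. Kept peaks had 24.2% (23.1% to 25.2%) promoter peaks and tiles 18.04% (17.6% to 18.5%). The classes differed more than the sets did. Promoter peaks were 11.5% (10.1% to 12.9%) of AT-rich absent peaks, where AT-rich tiles had 13.6% (12.9% to 14.4%), and 43.8% (41.3% to 46.3%) of GC-rich absent peaks, where GC-rich kept peaks had 29.9% (28.5% to 31.3%) and GC-rich tiles 51.3% (48.1% to 54.5%). In the GC-rich class, promoter peaks were more common among windows without another copy, in absent peaks, kept peaks and tiles alike. Of the 577 without another copy, 343, 59.4% (55.4% to 63.4%), were promoter peaks, against 324 of 945 with a copy, 34.3% (31.3% to 37.4%). Within 3 kb of a protein-coding start lay 216 of the 577, 37.4% (33.6% to 41.5%), and 90 of the 945, 9.52% (7.81% to 11.6%). In kept peaks, promoter peaks were 43.0% (37.1% to 49.0%) without and 28.9% (27.5% to 30.4%) with a copy, and those within 3 kb of a protein-coding start 21.3% (16.8% to 26.6%) and 6.81% (6.04% to 7.67%). In GC-rich tiles, the promoter shares were 53.3% (49.8% to 56.8%) and 39.6% (31.7% to 48.0%), and the shares near a protein-coding start 35.9% (32.6% to 39.3%) and 8.96% (5.20% to 15.001%).

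**Figure D5:**
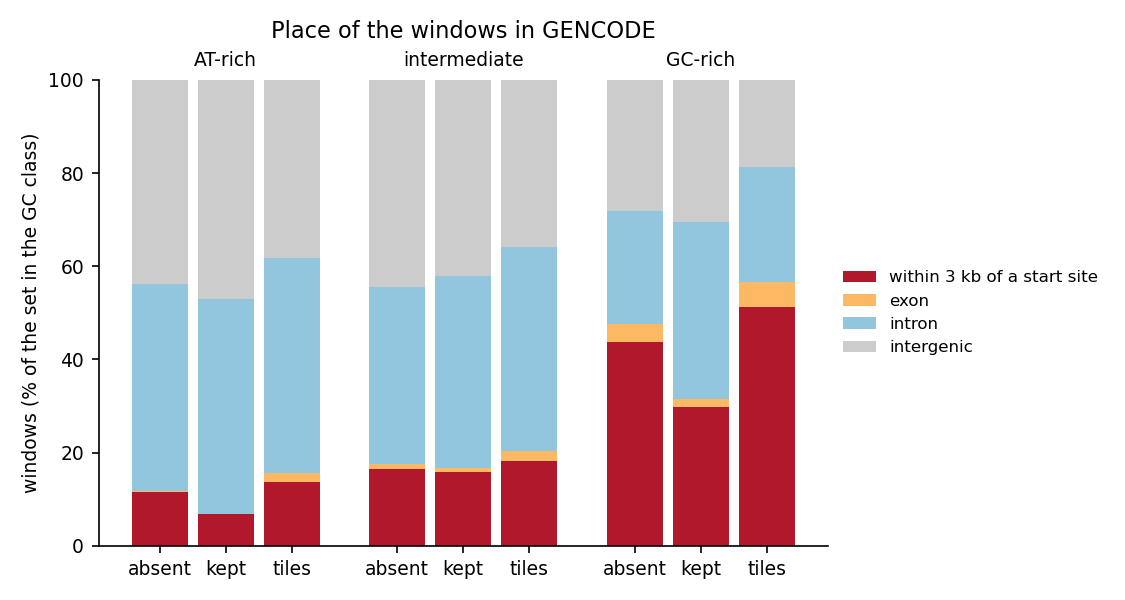
Place of the windows in the GENCODE annotation, as stacked shares in percent on the y axis, for absent peaks, kept peaks and sampled hg38 tiles of each GC class on the x axis. Promoter windows lie within 3 kb of a start site. GC-rich absent peaks have 43.8% promoter peaks, kept peaks 29.9% and tiles 51.3%, and AT-rich absent peaks have 11.5%.

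Of 20033 protein-coding genes, 2402 had an absent peak in the gene or within 10 kb of it, which is 12.0% of them, and 2695 had a kept peak. Genes with an absent peak were long, with a median of 66.9 kb against 24.9 kb for the others. A longer gene has more room for a peak of any set, and the length of genes with a kept peak was not taken. The genes with the most absent peaks were 2 annotated copies of NPIPA9 on chromosome 16, of a nuclear pore interacting protein family spread by segmental duplication, with 8 each, all GC-rich and all with another copy. C7orf50 had 7, 6 of them GC-rich. CNTNAP2, a neurexin family adhesion gene of 2305 kb, had 7, of which 5 were AT-rich, and DLGAP2, a postsynaptic scaffold gene, had 7, of which 5 were GC-rich. KCNS3, a potassium channel subunit gene, had 6, all AT-rich and without another copy, and 0 kept peaks. MYT1, a zinc finger factor gene of the nervous system, had 6, all with another copy, and PTPRN2, a receptor-type phosphatase gene of secretory vesicles, had 6 beside 10 kept peaks. CFAP46, a cilia gene, and GCOM1 had 5 each.

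Genes of the TGFβ pathway and its partners had absent peaks at about the rate of protein-coding genes in general. Over 80 genes in 5 lists, 8 genes, or 10.0%, had an absent peak, against the background of 12.0%, and 10 genes had a kept peak. Among 10 ligand and receptor genes it was LTBP1 alone, a latent TGFβ binding protein, whose peak lay 6893 bp outside the gene and had 0.50% GC. Among 15 Smad and feedback genes it was SMAD2 alone, with a peak on chromosome 18 from 47850217 to 47850841, a fold of 10.1 and 4% GC. A line with LAP-Smad2 carries SMAD2 on a BAC as well, so that under the sample label extra copies of the locus and binding cannot be told apart there. Of 25 target genes, among them ID1 and JUNB, 0 had an absent peak and 2 had a kept peak. Among 10 genes of epithelial-mesenchymal transition it was ZEB2, a repressor of E-cadherin, with 0% GC and 35 listed copies. Among 20 partner factors it was 5, namely ETS1 with 71.0% GC, FOXO3 with an Alu-type window, RUNX1 with 2 peaks of 9% and 34% GC, TCF12 with 4% GC and TFAP2A with 71.5% GC. Of these 9 peaks, the ETS1 and TFAP2A ones alone were of none of the listed sequence kinds.

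The single-copy GC-rich absent peaks were also counted at gene starts. Within 3 kb of the gene's start, 144 of 20033 protein-coding genes had one, or 0.719%. Reading their names showed several transcription factors of embryonic development, and 10 families of such factors were then listed in full. As they were listed after the names had been seen, the counts are a description. Of 217 family genes, 14 had such a peak. A single-copy GC-rich kept peak was found at 1 of them, and at 45 of all 20033 protein-coding genes, as there were 263 such kept windows against 577 absent ones. The 14 were HOXA11 of 39 HOX genes, LHX5 of 8 LIM homeobox genes, NKX2-5 of 14 NK-type genes, CDX2, HMX2, IRX2, POU3F1, POU3F3 and SIX6 of 51 other homeobox genes, TBX3 and TBX20 of 16 T-box genes, GATA5 of 6 GATA genes, SOX7 of 19 SOX genes and TFAP2A of 10 ZIC and TFAP2 genes. The 9 PAX and 45 forkhead genes had 0. These windows had between 14 and 25 CpG and between 67.0% and 74.0% GC, and their folds were moderate. TBX3, a limb and mammary gland factor, had the highest fold, 7.59 with a −log10 q of 8.64, 680 bp before its start. TBX20, a heart factor, had 7.34, with the window centre 24 bp after the start. TFAP2A, a neural crest and epidermis factor, had 6.32 with the highest −log10 q of the 14, 9.27, centred 1685 bp before the start. LHX5, a forebrain factor, had the lowest fold, 3.91. All 14 were absent from both treated lists by the rule, and with 1 library per condition it was not tested whether the signal there differed between conditions.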

How the data were processed

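Reads were mapped with Bowtie2 to hg38 and extended to 200 bp by the authors, who ran MACS2 with q 0.05 as the limit and deposited 1 narrowPeak list for each library. The fold enrichment is a ratio from the authors' peak caller. The deposited p and q scores are −log10 of the p-value and of the q-value. The summit offset was deposited as a distance in bp. The MACS2 version, the control and any filter on repeated reads are not given in the sources used here. The lists hold no read totals, so depth is unknown. Groups came from the sample labels.

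Windows of 200 bp on peak centres, and every 500th tile of 200 bp, were read from hg38 with pysam 0.24.0 (Python 3.11.15, numpy 2.4.6, pandas 2.3.3). Copies were sought with minimap2 2.31 in hg38 without alternative sequences, 7SL alignments with blastn 2.17.0 at an E value up to 1e-05, and 32-mers were counted exactly. Gene starts came from GENCODE release 44. With 1 library per condition no test was made and no p-value is given. Named peaks were the 10 with the highest −log10 q and the 3 with the lowest and the highest GC, and named genes were the 10 with the most absent peaks within 10 kb and each gene of 5 lists with any. No sequence from chromosome 8 was printed. Some windows, peaks and genes that these rules name are not reported here. The absent peaks and lists were chosen with earlier results of these data known, and GC classes, sequence kinds, score ranges, 3 of the printed sequences and the gene families after values had been seen. Alternatives were other overlap rules, a q-value below 0.01, other windows, copy thresholds and promoter definitions. The functions were tested on simulated data.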

Additional observations from a re-analysis of the deposited data

How the results depend on the processing

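Of 6 summary values, only the GC difference between absent and kept peaks could change direction, and it did not under the alternatives tried. Most of the 6 values moved by more than their counting error. The share of absent peaks, 43.7%, was 61.6% with a mutual overlap of at least 50%, 63.6% with summits within 100 bp and 34.4% when a treated peak within 1 kb counted as kept. Under the same 3 rules, the mean GC of absent peaks was 47.4%, 48.5% and 37.2%, its difference from kept peaks −14.7, −12.6 and −24.2 percentage points, the share with another copy 61.7%, 63.1% and 45.5%, and the share in the list labelled LAP-Smad3 untreated 3.16%, 3.13% and 0.335%. The promoter share was 24.5% with summits and 20.8% with the 1 kb rule. Counting only the LAP-Smad2 TGFB1 list, or only the LAP-Smad3 TGFB1 list, both chosen after seeing the data, gave 66.7% and 60.1% absent peaks with a mean GC of 46.4% and 47.8%. Without windows that have another copy, the mean GC was 34.2% and the difference −14.9. With windows of 400 bp the difference was −19.4. Copies at 80% and 95% of matching bases gave 56.5% and 39.95%. Promoters within 1 kb gave 11.99%, and those of protein-coding transcripts 9.33%. A q-value below 0.01, windows of 100 bp and windows on the summit moved no value beyond its counting error. No paired analysis was possible because each condition has 1 library. Depth per library is unknown and limits which peaks can be called absent.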

Other observations

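Of the other words searched, the nuclear receptor word AGGTCA was in 22.8% (20.7% to 25.02%) of intermediate absent windows, 25.2% (23.4% to 27.1%) of intermediate kept windows and 14.5% (14.0% to 15.004%) of intermediate tiles, and in 0.512% (0.278% to 0.939%) of AT-rich absent windows. The E-box was in 39.4% (36.9% to 42.0%) of intermediate absent windows and 18.9% (17.3% to 20.6%) of intermediate kept windows, the reverse of the order of Alu-type shares in these sets. In the AT-rich class the E-box shares were 16.9% (15.3% to 18.6%) and 18.6% (14.6% to 23.5%), and in the GC-rich class 41.8% (39.3% to 44.3%) and 38.6% (37.1% to 40.1%). Tiles had higher E-box shares in each class, with 54.9% (53.8% to 56.0%) of AT-rich, 68.2% (67.6% to 68.8%) of intermediate and 65.2% (62.1% to 68.3%) of GC-rich tiles. Exon peaks were 6.76% (4.98% to 9.11%) of GC-rich absent windows without another copy and 1.80% (1.13% to 2.86%) of those with a copy. The share of peaks absent after TGFβ-1 ran from 28.3% on chromosome 21 to 51.6% on chromosome 16.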
